A study of Rattus norvegicus with 4 samples.

Results

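Bipolar cell genes were followed in neurospheres, floating clusters grown from dissociated rat retina, through 9 named genes: Pcp2, Prkca, Cabp5, Trpm1, Vsx1, Gng13, Gnao1, Scgn and Lhx4. The members were all probe sets whose platform annotation gave exactly 1 gene symbol and that symbol was one of the 9. The rule found 6 probe sets for 6 genes, out of 31042 probe sets once array controls were set aside. Cabp5, Vsx1 and Scgn had no such probe set, so that their expression was not analysed here. All 4 samples were Sprague Dawley rat retina from embryonic day 18, dissociated with trypsin and grown with epidermal growth factor (EGF). In 2 samples EGF was given alone, and in the other two it was combined with conditioned medium, that is, medium in which endothelial (blood vessel lining) cells had been kept. Retinal cells of 10 embryos were pooled for a culture, and a further pool of embryos supplied the biological replicate of both conditions. The labels give neither the age of the cultures nor the origin of the endothelial cells. Total RNA was measured on 1 Affymetrix Rat 230 2.0 array per sample, whose probe sets lie near the 3' ends of transcripts.

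Bipolar cells are the interneurons that carry the signal of rods and cones to amacrine and ganglion cells. In rodents most of them are born late, around and after birth, from progenitors that also give rods and Müller glia. ON bipolar cells detect glutamate with the receptor mGluR6, which acts through the G protein Go on the cation channel TRPM1, so that the cell depolarizes when light lowers glutamate release. OFF bipolar cells use ionotropic glutamate receptors instead. Several members are not restricted to bipolar cells: Pcp2 is also a gene of cerebellar Purkinje cells, and Gnao1 and Prkca are expressed in many neurons. The arrays measured whole cultures, so that fewer cells of a type and less RNA per cell cannot be told apart.

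The promoters of Pcp2 and Gnao1, the members that were lower after quantile normalization, and of Trpm1, the member whose replicates disagreed most, are shown because they differ in composition. Each is the RefSeq sequence of assembly GRCr8 from 250 bases before to 50 bases after the annotated start, 5' to 3' on the strand of the gene. Pcp2 lies at chr12:6481258-6481557 (minus strand), Gnao1 at chr19:11198388-11198687 (minus strand) and Trpm1 at chr1:127130436-127130735 (plus strand). Capitals mark matches, on either strand, to 5 motifs, and adjacent or overlapping matches run together. TAATCC is the core bound by the photoreceptor and bipolar factors OTX and CRX. A further homeodomain core searched for was TAATTA. The E-box, a site of basic helix-loop-helix proneural factors, was searched for as CAGATG. The GC box of general promoter factors was spelled GGGCGG. For the TATA box, which places the start of transcription in some promoters, the letters were TATAAA.
Pcp2: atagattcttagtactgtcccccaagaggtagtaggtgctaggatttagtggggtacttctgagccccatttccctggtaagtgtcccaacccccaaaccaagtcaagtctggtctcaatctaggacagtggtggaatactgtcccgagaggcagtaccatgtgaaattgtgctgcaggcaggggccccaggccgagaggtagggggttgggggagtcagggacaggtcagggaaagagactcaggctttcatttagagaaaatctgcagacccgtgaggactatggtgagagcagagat
Gnao1: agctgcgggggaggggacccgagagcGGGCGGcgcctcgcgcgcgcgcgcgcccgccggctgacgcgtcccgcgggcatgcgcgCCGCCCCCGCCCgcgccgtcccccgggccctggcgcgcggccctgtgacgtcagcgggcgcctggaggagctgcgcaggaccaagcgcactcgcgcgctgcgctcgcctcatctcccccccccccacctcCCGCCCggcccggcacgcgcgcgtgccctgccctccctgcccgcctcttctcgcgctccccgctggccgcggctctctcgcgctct
Trpm1: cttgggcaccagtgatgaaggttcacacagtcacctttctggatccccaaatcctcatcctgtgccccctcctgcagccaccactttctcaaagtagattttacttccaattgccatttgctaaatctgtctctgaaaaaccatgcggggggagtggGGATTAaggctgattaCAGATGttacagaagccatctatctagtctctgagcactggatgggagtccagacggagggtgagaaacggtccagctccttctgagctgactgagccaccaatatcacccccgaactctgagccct

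The Pcp2 window held none of the 5 motifs, had 52.7% G and C and contained 3 CpG dinucleotides. The Gnao1 window had 82.3% G and C, 54 CpG dinucleotides and 4 GC boxes. Over all 33469 promoters the medians were 51.7% G and C and 7 CpG. Trpm1 held a TAATCC core, with its first base 93 bases before the start, and an E-box 77 bases before it. It was the only one of the 8 members with a promoter sequence that held TAATCC, which 7.17% of all promoters did. The E-box was found in 2 of the 8 (16.6% of all promoters), the GC box in 5 (33.1%), and TAATTA and TATAAA in 0 (5.36% and 14.2%). The matches describe letters in these windows and were not tied to the expression values.

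The deposited log2 values were not equalised between arrays: their medians were 6.03 (replicate 1) and 6.25 (replicate 2) without conditioned medium, and 6.84 and 6.56 with it. Differences are therefore given on values quantile normalized here, and rose and fell stand only for cases where limma's adjusted p was under 0.05 in the same direction on quantile normalized, deposited and median-centred values. A probe set was called dim where its mean deposited value lay in the lowest 30% of all probe sets, under 4.76 log2. Of the 6 probe sets, 5 were above this limit and Gng13 was dim. Markers of other cell types moved in the same arrays. Of all genes, each represented by its brightest probe set, 1.35% fell and 6.58% rose. Of all probe sets, 8.17% were called lower and 8.18% higher after quantile normalization. As deposited, where the median difference was 0.48 log2, 307 probe sets were lower and 9688 higher. Under all 3 scalings 306 were lower, so that a fall was in effect set by the deposited values. Whether more rose or fell thus depended on the scaling, and the 3 scalings are not separate supports for a fall. Photoreceptor markers fell in 9 of 13 with a probe set (mean quantile normalized level 8.46 to 8.60 log2 with EGF alone, 7.19 to 7.23 log2 with conditioned medium). Amacrine and horizontal cell markers fell in 3 of 12 (9.0 to 9.04 against 8.42 to 8.43 log2; 9 of 12 were called lower after quantile normalization), with a median difference of -0.57 log2. Muller glia markers were mixed: 2 of 7 rose (9.94 to 10.06 against 10.05 to 10.08 log2), but 4 of the 7 had a negative quantile normalized difference. Their median was -0.10 log2, with 1 called lower and 3 called higher after quantile normalization. Microglia markers rose in 8 of 12 (5.25 to 5.33 against 6.14 to 6.18 log2) and mesenchymal markers in 5 of 12 (5.44 to 5.53 against 6.34 to 6.37 log2). Dim were 2 of the photoreceptor, 2 of the microglia and 3 of the mesenchymal markers. The 3' actin control exceeded the 5' one, a difference that grows with RNA degradation, by 1.99 and 2.08 log2 in the EGF arrays and by 1.55 and 1.37 log2 in those with conditioned medium. The part of these shifts in the results below was not tested.

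The comparison asks what conditioned medium changes in neurospheres that already receive EGF. Among the bipolar cell genes Pcp2 fell, by 1.24 log2 or 2.35-fold, and the other five probe sets did not pass under all 3 scalings. Gnao1, the alpha subunit of Go, was lower after quantile normalization (-0.60 log2) but not as deposited, Prkca changed direction with the scaling, Lhx4 showed no difference as deposited, Trpm1 rested on 1 array, and Gng13 was dim. The count of 1 lower probe set of 6 stands beside 0.986% of all probe sets lower under all 3 scalings. No member was higher under all 3 scalings, where 4.92% of all probe sets were. At an unadjusted p under 0.05 in limma after quantile normalization, 3 of the 6 were lower and 0 higher. Of all 31042 probe sets, 4670 were lower and 4420 higher at that threshold. After quantile normalization alone 2 of 6 were lower and 0 higher, against 8.17% and 8.18% of all probe sets. As deposited 1 was lower (Pcp2) and 1 higher (Trpm1), against 0.989% and 31.2%. The median difference of the 6 was -0.40 log2 after quantile normalization, -0.34 log2 with median-centred arrays and 0.23 log2 as deposited, beside -0.01, -0.09 and 0.48 log2 for all probe sets.

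**Figure D1:**
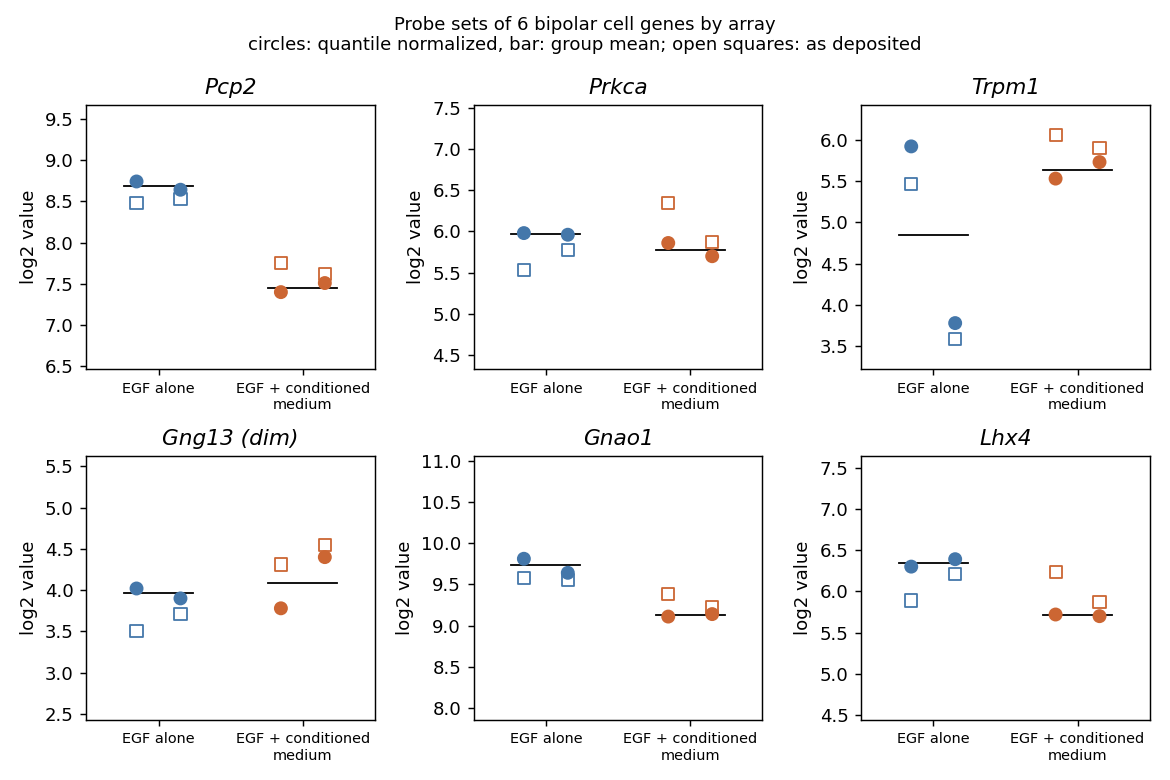
Log2 values of the 6 probe sets (vertical axis) in each of the 4 arrays, grouped by condition; circles are quantile normalized with a bar at the mean of each group, and open squares are as deposited. Pcp2 and Gnao1 lie lower with conditioned medium on both scales, while in Trpm1 EGF replicate 2 (3.78 log2) stands apart from EGF replicate 1 (5.92 log2).

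Pcp2 encodes Purkinje cell protein 2, a regulator of Go and Gi proteins that marks rod bipolar and some ON cone bipolar cells. Its deposited values were 8.48 and 8.53 with EGF alone, against 7.75 and 7.62 with conditioned medium (log2). After quantile normalization they were 8.74 and 8.64 log2 against 7.40 and 7.51 log2. The groups did not overlap on either scale, which is the same as all 4 pairs of a conditioned-medium and an EGF array going 1 way. Conditioned medium was lower without overlap for 29.4% of all probe sets after quantile normalization and for 3.50% as deposited. The quantile normalized difference was -1.24 ± 0.11 log2 (SE, 95% interval -1.48 to -0.99, n = 2 per group, limma adjusted p = 6.2e-05). It was -0.82 ± 0.20 log2 as deposited (adjusted p = 0.00058 in limma) and -1.39 ± 0.12 log2 with median-centred arrays. Of all 31042 probe sets, 0.322% had a quantile normalized difference this low or lower. Its rank within an array, which centring does not change, went from percentiles 76.0 and 74.9 to 60.5 and 61.6.

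The fall of Pcp2 kept its size when single arrays were left out, between -1.18 and -1.29 log2. Its adjusted p in limma after quantile normalization was then 0.0745 without EGF replicate 1, 0.083 without EGF replicate 2, and, for the conditioned-medium arrays, 0.134 without the first and 0.133 without the second. In those fits of 3 arrays limma called 0 of 31042 probe sets, with 3668, 3531, 2959 and 3155 lower and 3640, 3597, 2728 and 2848 higher at an unadjusted p under 0.05. With dim probe sets also left out, a choice made after seeing this, Pcp2 passed under all 3 scalings without any 1 of the 4 arrays (largest adjusted p of the 3 scalings 0.0201 to 0.0286 in limma). Each of these fits has 1 group of a single array, which is assumed to vary like the other group, so that these passes are a weak check. Each embryo pool supplied both conditions, so that the arrays may pair by pool, although no label says that the replicate number marks the pool. With the replicate number as a block, Pcp2 passed after quantile normalization (limma adjusted p = 0.000111) and median centring but missed as deposited (adjusted p = 0.0621), so that its call under all 3 scalings was lost.

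Gnao1 encodes the alpha subunit of Go, the G protein that couples mGluR6 to TRPM1 and that is abundant in neurons at large. Its probe set is of the kind that can recognise several transcripts of a gene. The deposited values were 9.58 and 9.55 with EGF alone, against 9.38 and 9.22 with conditioned medium (log2), and the quantile normalized ones 9.81 and 9.64 against 9.11 and 9.14 log2. Both scales put both conditioned-medium arrays below both EGF arrays, but the distance as deposited was small. The difference was -0.60 ± 0.09 log2 after quantile normalization (SE, 95% interval -0.79 to -0.41, limma adjusted p = 0.001) and -0.26 ± 0.17 log2 as deposited (adjusted p = 0.191). The call thus held after quantile normalization, with median-centred arrays (adjusted p = 0.000164) and after cyclic loess normalization (adjusted p = 0.00123) in limma, but not on the deposited values. After quantile normalization the call was also lost without the intensity trend (limma adjusted p = 0.0665). With the replicate number as a block it held (limma adjusted p = 0.00139), but not as deposited (adjusted p = 0.476). Without EGF replicates 1 and 2 the quantile normalized difference was -0.52 and -0.68 log2. Without conditioned-medium replicates 1 and 2 it was -0.59 and -0.61 log2. With all probe sets kept, those fits called none, so that they could not show whether the call of Gnao1 holds. Its percentile within the arrays was 87.9 and 86.3 with EGF alone and 80.6 and 80.9 with conditioned medium.

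Gng13 encodes the gamma subunit found with Go in ON bipolar cells, and is also known from taste cells. The probe set was dim in all 4 arrays, at 3.51 and 3.71 with EGF alone, against 4.31 and 4.55 with conditioned medium (log2) as deposited. After quantile normalization the values were 4.02 and 3.90 against 3.78 and 4.40 log2, so that the groups overlapped. The difference was 0.13 ± 0.26 log2 (SE, 95% interval -0.45 to 0.71, limma adjusted p = 0.797), and at this level it cannot show whether the transcript changed.

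Trpm1 encodes the cation channel that closes when mGluR6 is active, and its loss removes the light response of ON bipolar cells. The deposited values were 5.46 and 3.59 with EGF alone, against 6.06 and 5.90 with conditioned medium (log2). EGF replicate 2 lay far below the other three arrays, at percentile 12.9 of its array against 40.1 to 44.7 in the others. After quantile normalization the EGF replicates were 2.14 log2 apart and the conditioned-medium replicates 0.20 log2. Among the 2000 probe sets of nearest mean, 1 had a wider gap between the EGF arrays. The difference was 0.78 ± 0.53 log2 (SE, 95% interval -0.41 to 1.96, limma adjusted p = 0.372). As deposited it was 1.45 ± 0.39 log2 (limma adjusted p = 0.00225), where each probe set's spread is taken wholly from the trend with intensity and the gap between its own replicates has no weight. Without EGF replicate 2 the quantile normalized difference was -0.29 log2 (limma adjusted p = 0.499), and without EGF replicate 1 it was 1.85 log2. With dim probe sets left out as well, the value without EGF replicate 1 was called under all 3 scalings in limma (largest adjusted p = 0.0283). As deposited the difference was positive without either EGF array, at 0.52 log2 without replicate 2 and 2.39 log2 without replicate 1. The sign for Trpm1 thus depended on the EGF array used after quantile normalization. The same held with median-centred arrays (-0.16 log2 without replicate 2, 1.93 log2 without replicate 1). Among the 3 scalings the sign stayed positive only as deposited, where the median difference of all probe sets was itself 0.48 log2.

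Prkca encodes protein kinase C alpha, the standard marker of rod bipolar cells, which is also expressed outside the retina. Its deposited values were 5.53 and 5.78 with EGF alone, against 6.34 and 5.87 with conditioned medium (log2), higher in both conditioned-medium arrays. Quantile normalized, they were 5.98 and 5.96 against 5.86 and 5.70 log2, lower in both. The difference was -0.19 ± 0.22 log2 after quantile normalization (SE, 95% interval -0.68 to 0.30, limma adjusted p = 0.616) and 0.45 ± 0.36 log2 as deposited (adjusted p = 0.3). Neither passed, and the direction depended on the scaling.

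Lhx4 encodes a LIM homeodomain factor of cone bipolar cells that is also found in developing cones. The deposited values were 5.89 and 6.21 with EGF alone, against 6.23 and 5.87 with conditioned medium (log2), with the groups interleaved. After quantile normalization they were 6.30 and 6.39 against 5.72 and 5.70 log2, with no overlap. The difference was -0.63 ± 0.21 log2 (SE, 95% interval -1.10 to -0.16, limma adjusted p = 0.0689), and 0.00 ± 0.34 log2 as deposited (adjusted p = 0.997). It passed after quantile normalization once dim probe sets were left out of the fit (limma adjusted p = 0.0303), but not as deposited. In conditioned-medium replicate 2 the deposited values of Lhx4 and Prkca were identical, a value that 107 probe sets shared, since the deposited values are stepped.

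**Figure D2:**
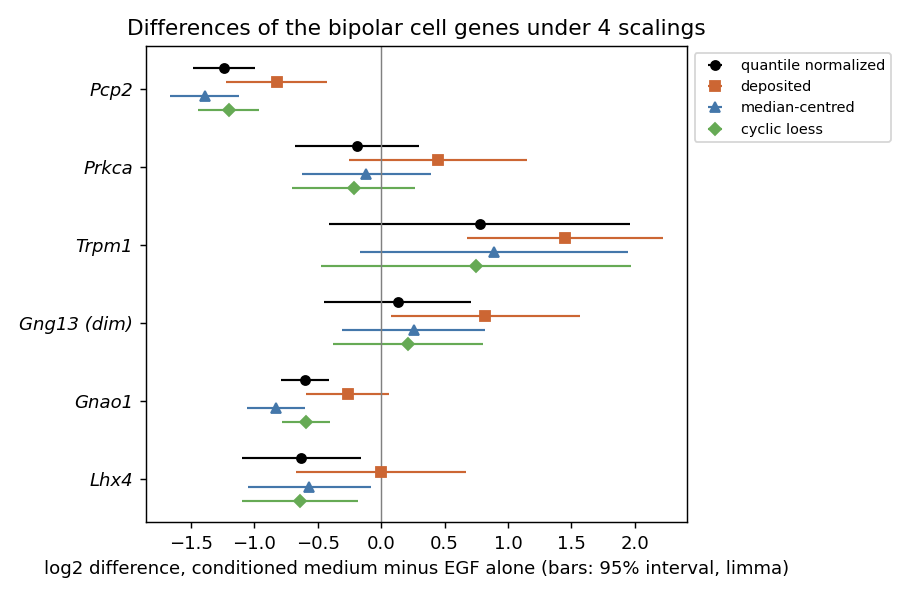
Log2 difference, conditioned medium minus EGF alone (horizontal axis), of the 6 probe sets under 4 scalings of the arrays, with 95% intervals from limma. Pcp2 lies below 0 with its whole interval under all 4 scalings, Gnao1 and Lhx4 under 3, and the deposited values lie to the right of the others for every member.

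Without regard to a test, the groups did not overlap and conditioned medium was lower for 4 of the 6 probe sets after quantile normalization (Pcp2, Gnao1, Prkca and Lhx4), against 29.4% of all probe sets. As deposited it was lower for 2 of the 6 (3.50% of all) and higher for 3 (69.4% of all). With 2 arrays a group, an exact two-sided permutation test of a single probe set cannot go below p = 0.333, so that every call rests on limma's pooling of the spread over probe sets.

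The partners of the members in the ON bipolar cascade, of which 9 had been listed, had 4 genes with a probe set, none of them dim. Of these 2 fell and 0 rose, against 1.35% and 6.58% of all genes, each gene represented by its brightest probe set, and the median difference was -0.84 log2 beside 0.01 log2 for all genes. Gnb3, a G protein beta subunit of ON bipolar cells and cones, had deposited values of 11.58 and 11.82 with EGF alone, against 11.27 and 11.17 with conditioned medium (log2). It fell by 0.78 log2 after quantile normalization (SE 0.07, limma adjusted p = 8.3e-05). Gnb5, the beta subunit that stabilizes the RGS proteins ending Go and transducin signals, had deposited values of 10.09 and 10.33 log2 against 9.80 and 9.35 log2. It fell by 0.97 log2 (SE 0.10, limma adjusted p = 0.000113). Both genes are also expressed in photoreceptors, whose markers fell in the same arrays.

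Grm6, the gene of mGluR6 itself and the defining gene of ON bipolar cells, was measured above the dim limit. Its deposited values were 6.93 and 7.35 with EGF alone, against 6.89 and 6.65 with conditioned medium (log2), and 7.25 and 7.50 against 6.47 and 6.51 log2 after quantile normalization. The conditioned-medium arrays were the lower ones on both scales. The difference was -0.89 ± 0.17 log2 after quantile normalization (SE, limma adjusted p = 0.00454) and -0.37 log2 as deposited (adjusted p = 0.264), so that Grm6 did not pass under all 3 scalings. The remaining partner, Rgs7, differed by 0.06 ± 0.09 log2 (SE).

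Of 12 listed factors of bipolar fate, 7 had a probe set, 1 of them dim, and 2 fell and 0 rose, against 1.35% and 6.58% of all genes. Prdm1, which represses bipolar fate in photoreceptor precursors, had deposited values of 11.72 and 11.99 with EGF alone, against 11.44 and 11.47 with conditioned medium (log2). It fell by 0.71 log2 (SE 0.09, limma adjusted p = 0.000376), a call that was close to the threshold as deposited (adjusted p = 0.0476). Bhlhe22, a factor of OFF bipolar and amacrine cells, fell by 0.85 log2 (SE 0.15, limma adjusted p = 0.0037), from 11.68 and 11.90 log2 to 11.64 and 10.84 log2 as deposited. With the robust option of eBayes it missed after quantile normalization (limma adjusted p = 0.136), so that its call under all 3 scalings was lost. Most of its fall lay in conditioned-medium replicate 2, and without that array its largest adjusted p over the 3 scalings was 0.598. Otx2, needed for photoreceptors and bipolar cells alike, differed by -0.35 ± 0.10 log2 (SE, limma adjusted p = 0.0321) after quantile normalization and by -0.04 log2 as deposited. Isl1, a factor of ON bipolar, amacrine and ganglion cells, differed by -0.35 ± 0.13 log2 (SE) and by 0.07 log2 as deposited. The list's median was -0.35 log2, and 0.07 log2 as deposited.

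All 9 listed receptor and synapse genes of bipolar cells had a probe set, 3 of them dim, and 1 fell and 0 rose, against 1.35% and 6.58% of all genes. Slc17a7, the vesicular glutamate transporter of bipolar cells and photoreceptors, had deposited values of 8.10 and 8.29 with EGF alone, against 7.64 and 7.48 with conditioned medium (log2), with no overlap. It fell by 1.06 log2 (SE 0.11, limma adjusted p = 0.000186). Ctbp2, whose locus also encodes the ribbon protein RIBEYE, differed by -0.27 ± 0.07 log2 (SE) after quantile normalization and by 0.02 log2 as deposited. Gabrr1, a GABA receptor subunit of bipolar terminals, differed by -0.99 ± 0.27 log2 (SE) and by -0.21 log2 as deposited, and passed only after quantile normalization among the 3 scalings. Its sister subunit Gabrr2, named after its values were seen, went the other way, with 3.45 and 4.68 log2 against 5.81 and 5.41 log2 as deposited. Both lay just above the dim limit of 4.76 log2, with mean deposited values of 4.9 log2 (Gabrr1) and 4.84 log2 (Gabrr2). The EGF arrays of Gabrr2 were 0.97 log2 apart after quantile normalization. The Gabrr2 difference was 0.79 ± 0.33 log2 (SE, limma adjusted p = 0.135) after quantile normalization, and it passed as deposited (1.55 log2, adjusted p = 0.00141) and with median-centred arrays (0.98 log2, adjusted p = 0.0498). Grik1, a kainate receptor subunit of OFF bipolar cells, also named after its values were seen, was higher as deposited (0.57 log2, limma adjusted p = 0.0164) but not after quantile normalization (0.19 log2, adjusted p = 0.339). The list's median was -0.27 log2 and, as deposited, 0.23 log2.

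The 5 genes of these lists that fell were Gnb3, Gnb5, Prdm1, Bhlhe22 and Slc17a7. With all probe sets in the fit and any 1 array left out, no probe set passed after quantile normalization. Those fits thus could not show whether the calls of Pcp2 and the 5 under all 3 scalings hold. With the replicate number as a block, neither Pcp2 nor any of the 5 passed under all 3 scalings. Among the 5, the largest adjusted p over the 3 scalings then ran from 0.0987 for Gnb5 to 0.333 for Prdm1 in limma. Without the intensity trend none of the 5 passed, while Pcp2 did (largest adjusted p over the 3 scalings 0.0335 in limma). With dim probe sets left out, Gnb3, Prdm1 and Slc17a7 were still lost without any 1 array. In those fits Gnb5 was lost without EGF replicate 2 (largest adjusted p over the 3 scalings 0.0783) and without conditioned-medium replicate 2 (0.133), and Bhlhe22 without any array but conditioned-medium replicate 1.

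**Figure D3:**
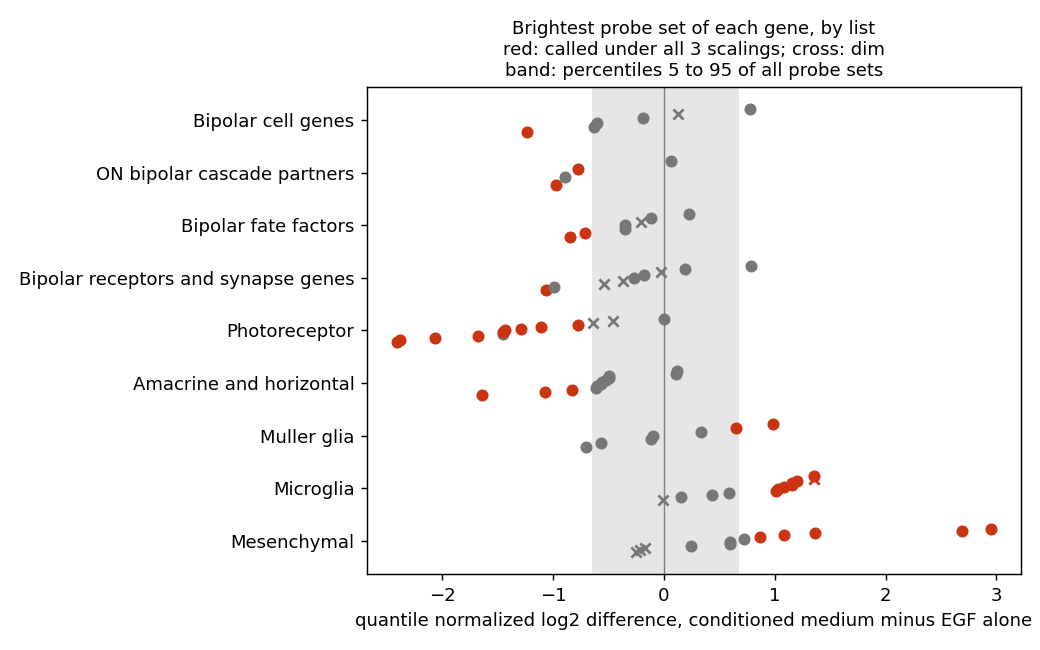
Quantile normalized log2 difference (horizontal axis) of the brightest probe set of each gene, by gene list; red points were called under all 3 scalings, crosses are dim, and the grey band runs from percentile 5 to 95 of all probe sets (-0.64 to 0.67 log2). Pcp2 (-1.24 log2) and 5 genes of the 3 other bipolar lists are red, beside 9 of 13 photoreceptor markers.

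Genes whose pattern over the 4 arrays was most like that of Pcp2 were sought by the Euclidean distance between quantile normalized values, each centred on its own mean, among 16007 probe sets that were not dim and had 1 symbol. The nearest were Atrx (distance 0.032 log2), Ano2 (0.035 log2), Pnpla3 (0.038 log2), Plppr5 (0.067 log2) and Rnf150 (0.106 log2). Their differences ran from -1.17 to -1.27 log2, and Ano2 and Pnpla3 also fell under all 3 scalings. Atrx lay near the dim limit of 4.76 log2, with a mean deposited value of 5.02 log2 (SE of its difference 0.25 log2). Pcp2 had a mean deposited value of 8.09 log2 (SE of its difference 0.11 log2). In all, 26 of the 16007 probe sets lay within 0.2 log2 of Pcp2.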

How the data were processed

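Neurospheres of embryonic day 18 rat retina were measured on 4 arrays, 2 with EGF alone and 2 with EGF and endothelial conditioned medium. The deposited log2 values came from RMA in GenePattern, per the labels, which give neither version nor options. The deposited values are stepped: the 31042 probe sets took 2699 to 3255 distinct values per array, and above 8 log2 every value, on the linear scale, lay within 0.01 of a grid of whole numbers shifted by 1 constant per array. The columns were not equalised, so they were quantile normalized here; deposited, median-centred and cyclic loess values were alternatives. Probe sets were named through the platform annotation (20826 with 1 symbol, 14217 genes), leaving out 57 array controls.

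The fit covered all 31042 probe sets and used limma 3.58.1 under R 4.3.3 (a two-sided moderated test with an intensity trend in eBayes and no block, called at 0.05 after Benjamini-Hochberg adjustment), and the procedure was tested on simulated data. On deposited values the prior took all the weight, against 8.29 prior degrees of freedom after quantile normalization. Further alternatives were a filter on dim probe sets, 1 probe set per gene with dim ones left out, no trend, the replicate as a block and leaving out each array. The robust option of eBayes was a further alternative, not planned at the start. The members, lists, scaling and call rule were chosen with earlier results of these data known. Named were all members and, per list of other bipolar genes, the 3 with the smallest adjusted p plus Grm6, Otx2 and Isl1; a further gene of this rule is not reported here. Rgs7 was named because it completes its list. The number of arrays limits the precision. Promoters came from RefSeq (8 of the 9 genes matched).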

Additional observations from a re-analysis of the deposited data

How the results depend on the processing

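After quantile normalization 2535 probe sets were lower and 2539 higher; as deposited these were 307 and 9688, and with median-centred arrays 5213 and 1943. Of the 6 bipolar probe sets 2 were lower and 0 higher after quantile normalization, against 1 and 1 as deposited. With 1 probe set per gene and dim ones left out, 1673 were lower and 1873 higher of 11496 tested. Without the intensity trend 569 were lower and 704 higher (92 and 560 under all 3 scalings, against 306 and 1526 with it), and 1 bipolar probe set was lower.

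With the replicate number as a block, 45 probe sets were lower under all 3 scalings, and 0 of the bipolar ones, since Pcp2 missed as deposited (adjusted p = 0.0621 in limma). Each pool of embryos supplied both conditions, but no label says that the number marks the pool, and same-numbered arrays deviated with a correlation of -0.02 (quantile normalized, 2 pairs). Whether the numbers pair the arrays was thus not settled.

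With any 1 array left out, with or without the dim probe sets, the lower probe sets ranged from 0 to 1094 and the higher from 0 to 1509 after quantile normalization, and from 0 to 152 and 0 to 1249 under all 3 scalings. The bipolar probe sets ranged from 0 to 2 lower and 0 to 1 higher, and from 0 to 1 in either direction under all 3 scalings. The zeros in the counts over the whole array came from fits that kept the dim probe sets. Their prior had 2.34 to 2.38 degrees of freedom after quantile normalization, and the cause was not tested. For the bipolar probe sets, zeros also came from fits with dim probe sets left out. After quantile normalization 419 probe sets had equal values in both EGF arrays and 513 in both conditioned-medium arrays.

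As deposited Lhx4 showed no difference (0.00 log2). The sign turned for Prkca as deposited (0.45 log2), Trpm1 without EGF replicate 2 (-0.29 log2, also with dim probe sets left out) and Gng13 without conditioned-medium replicate 2 (-0.18 log2). With 1 array left out Trpm1 ranged from -0.29 to 1.85 log2 and Gng13 from -0.18 to 0.44 log2. Of 90 values of single members under an alternative, 68 kept direction and side of the threshold. Among the 68 were 12 for Pcp2, which lost its call in 4, and 8 for Gnao1, which lost it in 8. The rest belonged to members not called after quantile normalization, for which staying uncalled is easily met.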
